A study of Homo sapiens with 18 samples.

Results

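The mitosis and G2/M genes described here are 40 protein-coding genes chosen by symbol, from cyclin B1 (CCNB1) and CDK1 to the spindle proteins, and all 40 were found among the 31004 genes of the count table. Their RNA was followed in HCT116 cells, a line established from a human colorectal carcinoma, in 6 groups of 3 libraries each. The cells stably expressed the long noncoding RNA CRLM1 (gene LINC01767), an antisense control for it or an empty control, and these backgrounds are named CRLM1, Antisense and Ctrl. Each background received a negative control (NC) or a construct for overexpression of hnRNPK, a protein that binds RNA and single-stranded DNA and is the product of the gene HNRNPK, which gave Ctrl_NC, CRLM1_NC, Antisense_NC, Ctrl_hnRNPK, CRLM1_hnRNPK and Antisense_hnRNPK. The authors describe a lentiviral vector with puromycin selection for stable expression of CRLM1. Their paper does not state whether the Antisense and Ctrl cells had the same selection. How many independent cell populations stand behind each background is not given in the sources used here. The 3 libraries of a group are biological replicates by the series design. Nothing says that they came from separately made lines, so the p-values measure the spread between these libraries.

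Entry into mitosis is driven by CDK1 bound to A- and B-type cyclins, after CDC25 phosphatases remove the inhibitory phosphates from CDK1. Polo and Aurora kinases then build the spindle, the checkpoint proteins hold anaphase until every kinetochore is attached, and the anaphase-promoting complex with its activator CDC20 and its E2 enzyme UBE2C ends the arrest by degrading cyclin B and securin. Transcription of many of these genes peaks in G2 and M phase, where FOXM1 and the MuvB complex act on a promoter element called the cell cycle genes homology region (CHR), often with CCAAT boxes nearby that bind NF-Y. In bulk RNA, fewer cells in G2 and M phase and less RNA per cell cannot be told apart.

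The promoters were read first, because these elements are tied to the G2 and M phase transcription of many such genes, which was not tested here. RefSeq (GRCh38.p14) held 42 promoter windows for 33 of the 40 members, and the 250 bases before each start were searched on both strands for the CHR letters TTTGAA or TTTAAA and for CCAAT, counting overlapping matches. A CHR match lay in 61.9% of the 42 member windows and in 21.9% of all 35116 windows. CCAAT lay in 73.8% of the member windows and in 32.0% of all windows, and both motifs lay in 52.4% against 7.64%. By gene, 24 of the 33 members held a CHR match, 27 held CCAAT, 18 held CCAAT at least 2 times, and 3 members (KIF2C, NDC80 and NUF2) held neither. A match is a description of letters and not of a bound site.

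Promoters are printed to set members that rose most under the hnRNPK construct in the Antisense background (ECT2 and ASPM) beside those with a window that fell most there (AURKB, CDC25B and CDC20). Only windows with a CHR or CCAAT match were eligible, so each chosen window held a match by selection. Capitals mark CHR or CCAAT letters, and each window was shortened to the stretch without annotated exons. HMMR, which had the highest change, held 2 CHR and 5 CCAAT matches, but its whole window overlaps an annotated exon and is not printed. The stretches are chr3:172750476-172750681 (plus strand, ECT2), chr1:197146695-197146919 (minus strand, ASPM), chr17:8210255-8210475 (minus strand, AURKB), chr20:3795539-3795738 (plus strand, CDC25B, at 1 of its 4 annotated windows) and chr1:43358731-43358980 (plus strand, CDC20). ECT2 and AURKB have 2 annotated windows each, of which 1 was used.
ECT2: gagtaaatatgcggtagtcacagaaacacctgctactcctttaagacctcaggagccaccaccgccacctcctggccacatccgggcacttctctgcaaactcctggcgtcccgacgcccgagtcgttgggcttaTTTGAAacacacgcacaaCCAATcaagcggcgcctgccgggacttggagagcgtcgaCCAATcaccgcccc
ASPM: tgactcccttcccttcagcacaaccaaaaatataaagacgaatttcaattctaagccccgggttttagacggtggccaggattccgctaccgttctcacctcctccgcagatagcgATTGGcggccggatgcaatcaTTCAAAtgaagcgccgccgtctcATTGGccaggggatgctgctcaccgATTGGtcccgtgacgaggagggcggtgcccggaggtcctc
AURKB: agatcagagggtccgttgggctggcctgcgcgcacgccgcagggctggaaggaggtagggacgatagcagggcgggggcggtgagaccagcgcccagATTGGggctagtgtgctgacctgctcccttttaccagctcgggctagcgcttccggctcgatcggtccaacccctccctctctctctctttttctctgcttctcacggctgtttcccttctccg
CDC25B: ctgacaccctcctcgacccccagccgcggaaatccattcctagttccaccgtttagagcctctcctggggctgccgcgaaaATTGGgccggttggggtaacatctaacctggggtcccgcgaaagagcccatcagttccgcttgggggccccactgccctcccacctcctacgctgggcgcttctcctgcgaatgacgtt
CDC20: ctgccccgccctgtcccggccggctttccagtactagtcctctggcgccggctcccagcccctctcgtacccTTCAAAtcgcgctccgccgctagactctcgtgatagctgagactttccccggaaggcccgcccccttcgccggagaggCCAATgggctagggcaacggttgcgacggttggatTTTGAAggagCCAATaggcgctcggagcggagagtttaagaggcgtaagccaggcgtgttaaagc
ECT2, ASPM and CDC20 held both motifs in these stretches, whereas AURKB and CDC25B held 1 CCAAT match and no CHR match. CDC20 and ECT2 held the same kinds of letters and moved in opposite directions, as given below. Whether the letters bear on the direction was not tested.

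Library totals ran from 19732681 to 27039520 counts. LINC01767 was at 0 CPM (counts scaled to library size with TMM factors) in all 6 Ctrl libraries, between 580 and 659 CPM in the CRLM1 libraries and between 39.1 and 50.0 CPM in the Antisense libraries; whether counting used the strand is not given in the sources used here. HNRNPK was between 424 and 480 CPM in the 9 NC libraries and between 491 and 713 CPM in the 9 hnRNPK libraries, where counts from the construct and the gene cannot be told apart. The third hnRNPK libraries of Ctrl and CRLM1 stood apart. Their profiles correlated across 12959 genes at most at 0.959 and 0.951 with their own group, but at 0.991 and 0.985 with NC libraries of their background, and they held the lowest HNRNPK of their groups (491 and 571 CPM). Results that rest on them are given with and without them. Of the epithelial markers, EPCAM (252 to 450 CPM), KRT8, KRT18, KRT19 and CDH1 were present in every library and VIL1 stayed under 0.796 CPM. The endothelial markers summed to at most 0.525 CPM, and the fibroblast list was carried by COL1A1 (11.2 to 32.8 CPM), with COL1A2, LUM and DCN at 0 in 17 of 18 libraries each.

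In Ctrl_NC, the levels per length (FPKM as deposited) of the members ran from 122 ± 3.41 (SD, n = 3) for UBE2C to 0.503 ± 0.0404 for ASPM, a spindle pole protein. CDC20 (60.6 ± 2.60), CDC25B (38.2 ± 0.803), AURKB (38.0 ± 1.72) and the passenger protein survivin (BIRC5, 26.4 ± 0.399) followed UBE2C. CDC25B and AURKB overlapped, and so did CDK1 (22.6 ± 0.963) with TPX2 and the members TPX2 (20.9 ± 0.832), ANLN (20.6 ± 0.548) and KIF2C (20.3 ± 0.506). The lowest levels belonged to HMMR (1.17 ± 0.0907), CENPF (0.797 ± 0.0751), KIF20B (0.783 ± 0.0551), CENPE (0.517 ± 0.116) and ASPM, of which CENPE and ASPM overlapped, as did CENPF with KIF20B. The transcripts of the members have a median GC content of 42.0% (34.3 to 59.1%), against 49.5% for the 14337 genes that were tested in the Antisense background and have a value.

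Summed over the members, Ctrl_NC libraries gave the members 0.199% ± 0.00061 (SD, n = 3) of their counts, CRLM1_NC libraries 0.220% ± 0.00155 and Antisense_NC libraries 0.266% ± 0.00701. With the hnRNPK construct the shares were 0.251% ± 0.0273 in Ctrl, 0.249% ± 0.0549 in CRLM1 and 0.352% ± 0.0355 in Antisense. The third libraries of Ctrl_hnRNPK and CRLM1_hnRNPK held 0.226% and 0.186%, each the lowest share of its group, although by summed CPM the third Ctrl_hnRNPK library (2529) lay above the second (2309.8). All 3 Antisense_hnRNPK libraries (0.315% to 0.386%) lay above every other library.

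**Figure D1:**
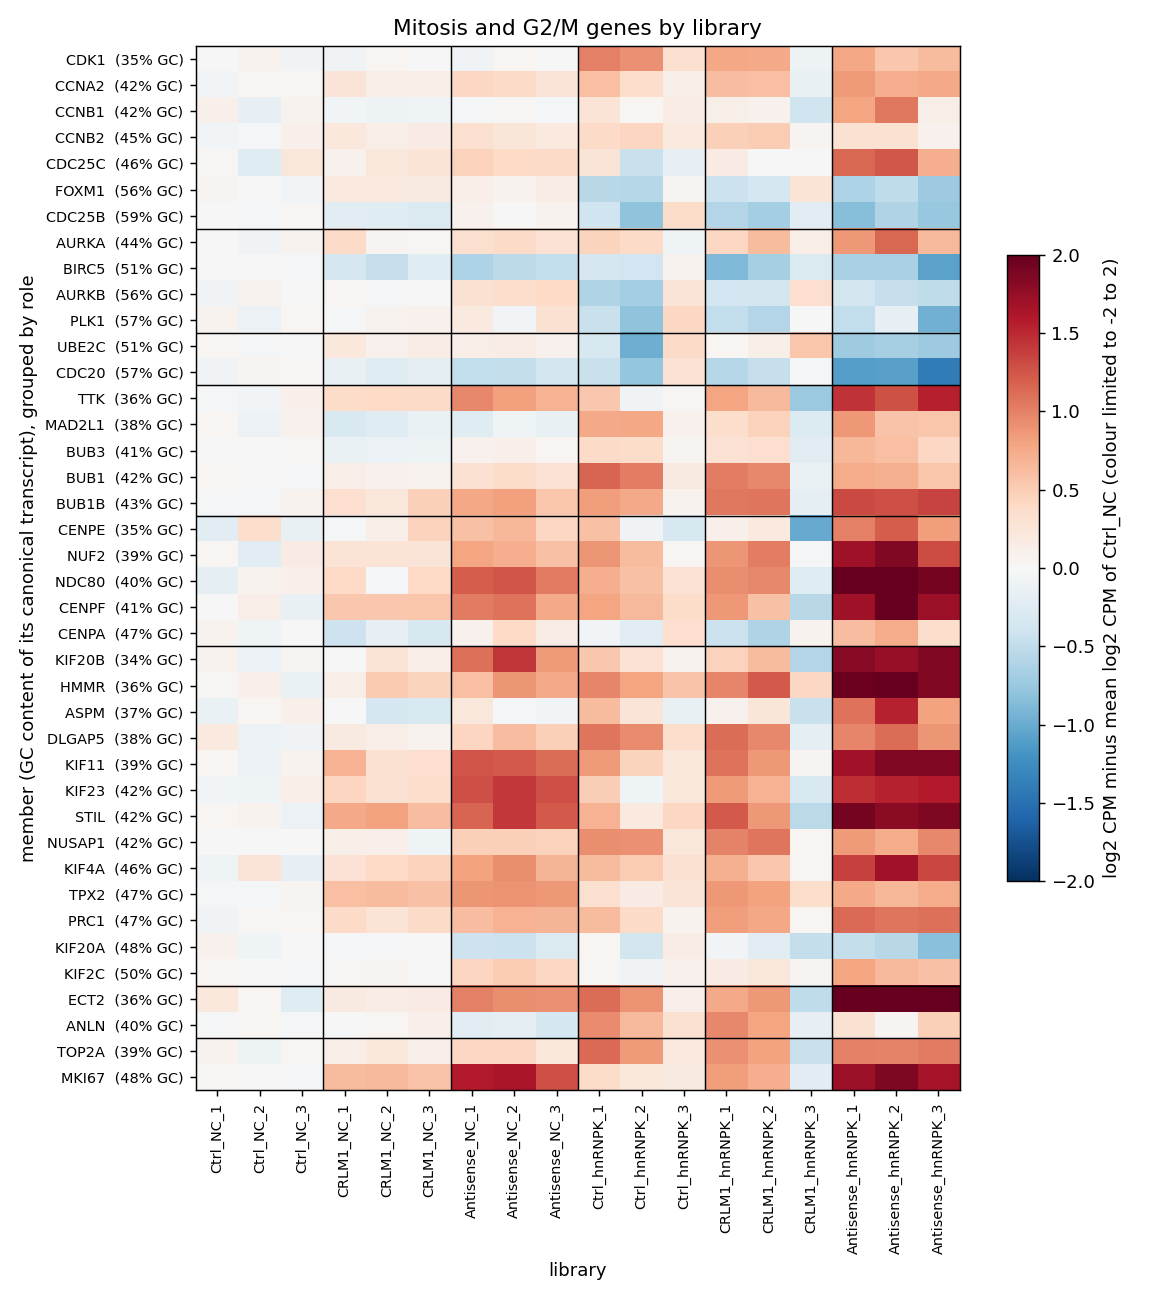
Heat map of the 40 members (rows, grouped by role, with the GC content of the canonical transcript) in 18 libraries (columns), as log2 CPM minus the mean log2 CPM of the 3 Ctrl_NC libraries; red is higher and blue lower. The Antisense libraries are red for most members, the third Ctrl_hnRNPK and CRLM1_hnRNPK libraries differ from the other 2 of their groups, and FOXM1, CDC25B, AURKB, PLK1 and CDC20 are blue in Antisense_hnRNPK.

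The first comparison asked how the members stood in the Antisense background without the construct. In Antisense_NC against Ctrl_NC, 26 members rose and 5 fell at an adjusted p of at most 0.05, and their median log2 fold change was 0.33 against -0.0025 over all 14389 genes tested. This contrast called many genes, 34.4% of all tested as higher and 32.2% as lower. Members of every role except the anaphase-promoting complex were among the rises, and cyclin B1, CDK1, PLK1 and FOXM1 did not pass the test. Past the 2-fold limit of the study there were 6 members, all higher (7.19% of all genes tested passed it upward). With the trend of log2 fold change on transcript GC and length removed, 1 member, MKI67 (2.69-fold), stayed past 2-fold, with STIL at 1.87-fold and KIF23 at a log2 fold change of 0.97, while the share of all genes past 2-fold in either direction went from 14.1% to 12.3%.

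MKI67, which encodes the Ki-67 protein that coats mitotic chromosomes, was at 89.2, 88.3 and 86.3 CPM in Ctrl_NC, at 136, 138 and 131 CPM in CRLM1_NC and at 265, 272 and 216 CPM in Antisense_NC. The 3 groups did not overlap. Its log2 fold change in Antisense_NC was 1.46 ± 0.08 (SE, adjusted p = 9.82e-09), a 2.76-fold rise.

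Among the motors, KIF23, a kinesin of the central spindle, was at 19.9, 19.4 and 22.6 CPM in Ctrl_NC and at 50.1, 54.6 and 50.2 CPM in Antisense_NC (log2 fold change 1.27 ± 0.07, adjusted p = 1.54e-17). KIF11, the motor that pushes spindle poles apart, went from 12.2, 11.0 and 12.5 to 28.6, 27.8 and 25.8 CPM (1.16 ± 0.09, adjusted p = 1.71e-13). STIL, a centriole duplication factor, went from 14.9, 15.3 and 13.5 to 32.5, 38.9 and 34.0 CPM (1.22 ± 0.09, adjusted p = 7.1e-15). None of these groups overlapped. The kinesin KIF20B (1.11 ± 0.13) and the outer kinetochore protein NDC80 (1.11 ± 0.12) completed the 6 members past 2-fold. Of the 13 spindle motors and microtubule proteins 11 rose, and 4 of the 5 centromere and kinetochore proteins rose, with CENPF at 0.92 ± 0.10, NUF2 at 0.65 ± 0.12 and CENPE at 0.47 ± 0.15. CENPA, the centromeric histone, did not pass (0.17 ± 0.12, adjusted p = 0.191). TPX2, which activates Aurora A at the spindle, rose by 0.83 ± 0.04, and ECT2, the exchange factor that triggers cytokinesis, by 0.90 ± 0.09. The kinesin KIF4A rose by 0.74 ± 0.10, HMMR by 0.70 ± 0.14, PRC1 by 0.61 ± 0.05, the spindle proteins DLGAP5 by 0.46 ± 0.10 and NUSAP1 by 0.42 ± 0.05, and the microtubule depolymerase KIF2C by 0.40 ± 0.04. Topoisomerase TOP2A rose by 0.31 ± 0.06, and ASPM (-0.0027 ± 0.14) and UBE2C (0.075 ± 0.037) did not pass.

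Of the 5 checkpoint members, the kinases TTK (0.78 ± 0.09) and BUB1 (0.27 ± 0.07) and the pseudokinase BUB1B (0.67 ± 0.08) rose, BUB3 did not pass (0.02 ± 0.04), and MAD2L1 fell by 0.20 ± 0.06 on the log2 scale. AURKA (0.28 ± 0.11) and AURKB (0.30 ± 0.05) rose and PLK1 did not pass (0.10 ± 0.08). Cyclins A2 (0.30 ± 0.06) and B2 (0.20 ± 0.08) and the phosphatase CDC25C (0.36 ± 0.14) rose. CCNB1 (-0.062 ± 0.073), CDK1 (-0.06 ± 0.06), CDC25B (0.01 ± 0.04) and FOXM1 (0.06 ± 0.06) did not pass. With the GC and length trend removed these 4 passed, CCNB1 (-0.26 ± 0.07) and CDK1 (-0.39 ± 0.05) as lower and CDC25B (0.12 ± 0.03) and FOXM1 (0.14 ± 0.05) as higher, and PLK1 passed as higher (0.26 ± 0.07). Also newly passing then were UBE2C as higher (0.36 ± 0.04) and BUB3 (-0.33 ± 0.04) and ASPM (-0.42 ± 0.14) as lower.

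The 5 members that fell included the activator of the anaphase-promoting complex. BIRC5 was at 121, 121 and 118 CPM in Ctrl_NC and at 78.7, 83.6 and 85.5 CPM in Antisense_NC (log2 fold change -0.59 ± 0.05, adjusted p = 6.06e-14). CDC20 went from 151, 164 and 161 to 113, 114 and 122 CPM (-0.49 ± 0.04, adjusted p = 1.98e-12). Both groups were apart without overlap. KIF20A, a kinesin of cytokinesis (-0.42 ± 0.08), the contractile ring protein ANLN (-0.30 ± 0.05) and MAD2L1 were the others. GC content moved with this comparison: the Spearman correlation of log2 fold change with transcript GC was -0.31 across 14223 genes and -0.33 across the 40 members, a description with no test, and the part of GC in the result was not tested. With the GC and length trend removed, 23 members rose and 9 fell, beside 63.8% of all genes called in either direction. BUB1 (-0.015) and TOP2A (-0.098) turned sign without passing the test. The rises of CCNA2 (0.042), AURKA (0.18), CENPE (0.022), DLGAP5 (0.091) and HMMR (0.30) then no longer passed either.

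**Figure D2:**
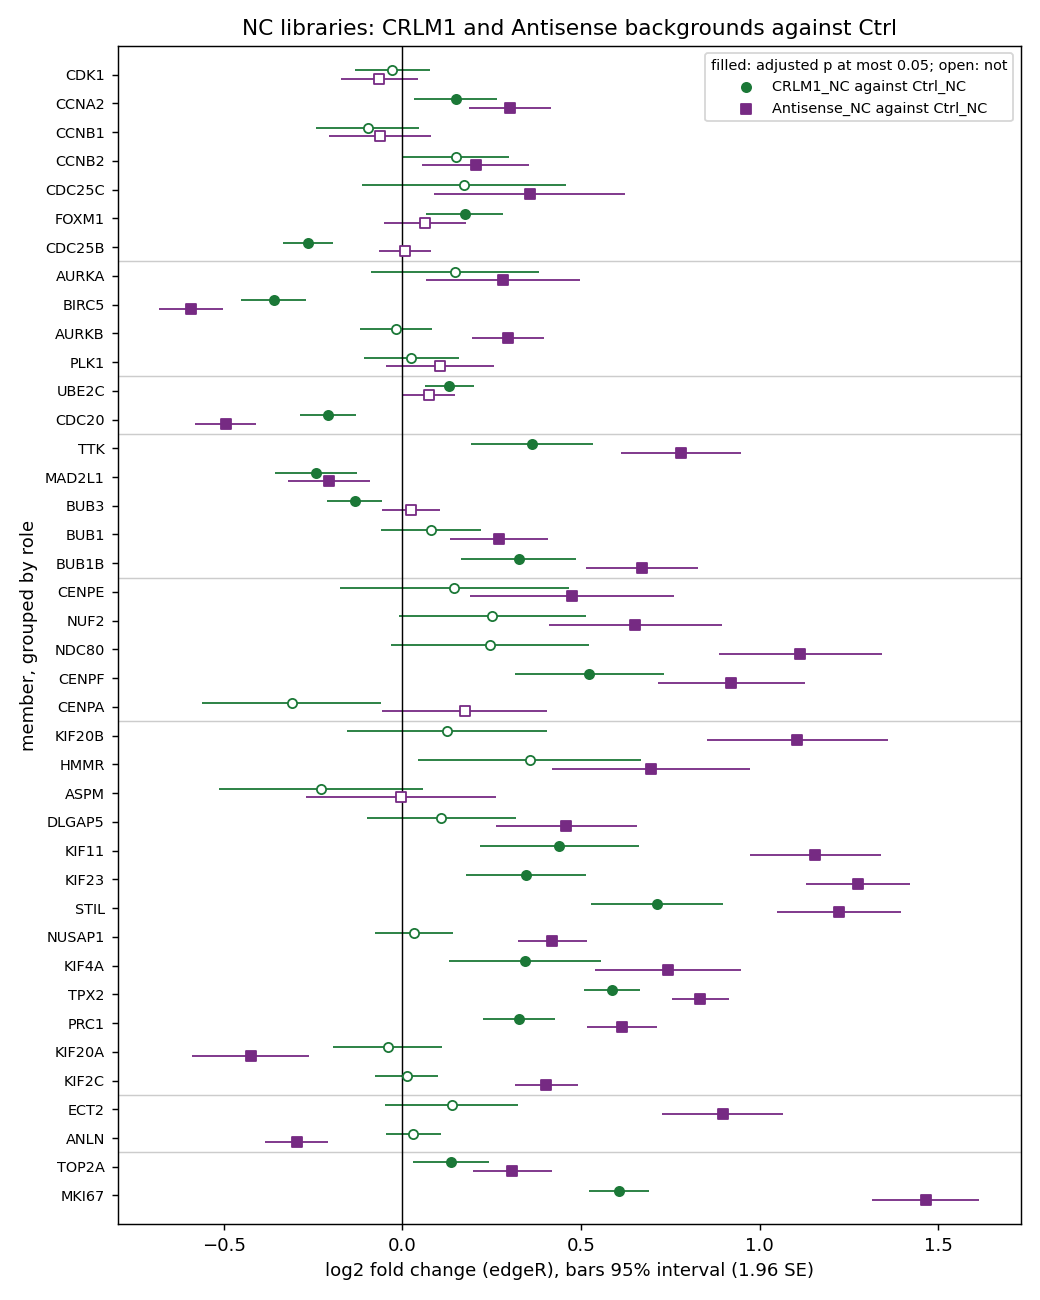
Log2 fold change (x axis, edgeR) with 95% intervals of each member (y axis, by role) in CRLM1_NC (green circles) and Antisense_NC (purple squares) against Ctrl_NC; filled points pass an adjusted p of 0.05. MKI67 lies at 0.61 and 1.46, BIRC5 at -0.36 and -0.59, and most purple points lie to the right of the green ones. Both contrasts share the Ctrl_NC libraries.

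CRLM1 overexpression alone gave smaller changes. In CRLM1_NC against Ctrl_NC, 14 members rose, 5 fell and 21 did not pass, with a median log2 fold change of 0.14 against 0.0059 over all 14459 genes. The background was 16.9% called higher and 17.4% called lower. On FPKM with limma, which shifts the scale between libraries, 16 rose and 3 fell. No member passed 2-fold. After removal of the GC and length trend 12 rose and 5 fell, beside 2378 higher and 2453 lower of all 14459 genes. CCNA2 and TOP2A then no longer passed.

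STIL had the largest value: 24.6, 25.5 and 22.3 CPM in CRLM1_NC against 14.9, 15.3 and 13.5 CPM in Ctrl_NC, without overlap (log2 fold change 0.71 ± 0.09, adjusted p = 9.17e-08). MKI67 (0.61 ± 0.04, adjusted p = 1.11e-14) and TPX2 (0.59 ± 0.04, adjusted p = 6.2e-15) followed. TPX2 was at 105, 105 and 112 CPM in Ctrl_NC and at 163, 167 and 161 CPM in CRLM1_NC. CENPF rose by 0.52 ± 0.11, KIF11 by 0.44 ± 0.11, TTK by 0.36 ± 0.09, KIF23 by 0.35 ± 0.09, KIF4A by 0.34 ± 0.11, and BUB1B and the microtubule bundler PRC1 by 0.33 each. FOXM1, the G2/M transcription factor, rose by 0.17 ± 0.06 and UBE2C by 0.13 ± 0.03. The members that fell were BIRC5 (-0.36 ± 0.05), CDC25B (-0.26 ± 0.04), MAD2L1 (-0.24 ± 0.06), CDC20 (-0.21 ± 0.04) and BUB3 (-0.13 ± 0.04). The Spearman correlation with GC was -0.16 over 14289 genes.

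Set directly against the antisense control, CRLM1_NC was lower for most members. In CRLM1_NC against Antisense_NC, 26 members were lower and 4 higher, beside 29.5% and 26.9% of all 14364 genes. The median was -0.28 against -0.0034 over all genes. This contrast shares its libraries with both contrasts above, so its calls are not separate evidence. KIF20B (-0.97 ± 0.13, adjusted p = 4.06e-08), KIF23 (-0.92 ± 0.07, adjusted p = 5e-14), NDC80 (-0.87 ± 0.12), MKI67 (-0.85 ± 0.08) and ECT2 (-0.75 ± 0.08) were the lowest. The members that were higher in CRLM1_NC were KIF20A (0.39 ± 0.08), ANLN (0.33 ± 0.05), CDC20 (0.29 ± 0.04) and BIRC5 (0.24 ± 0.05). All 5 kinetochore members were lower, and of the cyclin and CDC25 group only CDC25B (-0.27 ± 0.04) and CCNA2 (-0.15 ± 0.06) passed. With the GC and length trend removed, 7 were higher and 18 lower, beside 52.5% of all genes called in either direction. Of the kinetochore members CENPA (-0.53 ± 0.12) and NDC80 (-0.65 ± 0.11) then stayed lower, whereas CENPF and NUF2 did not pass. CENPE (0.020) and CCNA2 (0.026) turned sign without passing.

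The hnRNPK construct was compared with NC within each background. In Antisense_hnRNPK against Antisense_NC, where the 3 libraries resembled each other, 30 members rose and 6 fell. Of all 14501 genes, 33.4% were called higher and 30.5% lower, and the medians were 0.48 for the members and 0.04 for all genes. Past 2-fold 3 members rose, HMMR, ECT2 and ASPM, beside 7.28% of all genes tested. All 5 kinetochore and all 5 checkpoint members rose, of which BUB1, BUB3, TTK and CENPE were under 0 with the GC and length trend removed. CDC20 and UBE2C fell, as did AURKB, PLK1, CDC25B and FOXM1, and AURKA rose.

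HMMR, a microtubule-binding protein of the spindle, was at 8.31, 10.0 and 9.21 CPM in Antisense_NC and at 21.3, 32.0 and 19.8 CPM in Antisense_hnRNPK (log2 fold change 1.41 ± 0.17, adjusted p = 1.01e-05), a 2.66-fold rise. ECT2 went from 40.4, 38.0 and 37.8 to 80.1, 95.6 and 81.2 CPM (1.14 ± 0.09, adjusted p = 2.37e-07). ASPM went from 9.13, 7.68 and 7.52 to 16.7, 22.8 and 13.6 CPM (1.13 ± 0.18, adjusted p = 9.56e-05). The groups did not overlap for these 3 genes, and the second Antisense_hnRNPK library held the highest value of each. NUF2 (0.93 ± 0.14), NDC80 (0.93 ± 0.11) and CENPF (0.90 ± 0.14) led the kinetochore group, and MAD2L1 (0.82 ± 0.10) the checkpoint group. CCNB1 rose from 35.4, 36.7 and 35.8 CPM to 62.9, 75.4 and 39.3 CPM (0.72 ± 0.21, adjusted p = 0.0124), with the third library close to NC. CDK1 rose by 0.66 ± 0.08, TOP2A by 0.65 ± 0.08, CDC25C by 0.64 ± 0.15 and AURKA by 0.57 ± 0.13. The other members that rose lay between 0.65 for KIF4A and KIF20B and 0.20 for KIF23, with MKI67 at 0.23 ± 0.10 and KIF2C at 0.23 ± 0.08.

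UBE2C, the E2 enzyme of the anaphase-promoting complex, was at 245, 249 and 236 CPM in Antisense_NC and at 136, 141 and 136 CPM in Antisense_hnRNPK, a log2 fold change of -0.83 ± 0.07 (adjusted p = 4.66e-07). AURKB, the kinase of the chromosomal passenger complex, went from 87.7, 90.7 and 94.3 to 55.5, 51.9 and 50.0 CPM (-0.80 ± 0.08, adjusted p = 1.15e-06). CDC20 went from 113, 114 and 122 to 74.1, 74.9 and 60.0 CPM (-0.74 ± 0.10, adjusted p = 1.18e-05). No library of one group reached the other for these 3 genes. CDC25B fell by 0.79 ± 0.08, FOXM1 by 0.73 ± 0.09 and PLK1 by 0.65 ± 0.18 on the log2 scale. TPX2 (-0.17 ± 0.07), BIRC5 (-0.23 ± 0.11), KIF20A (-0.24 ± 0.12) and CCNB2 (-0.027 ± 0.10) did not pass.

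**Figure D3:**
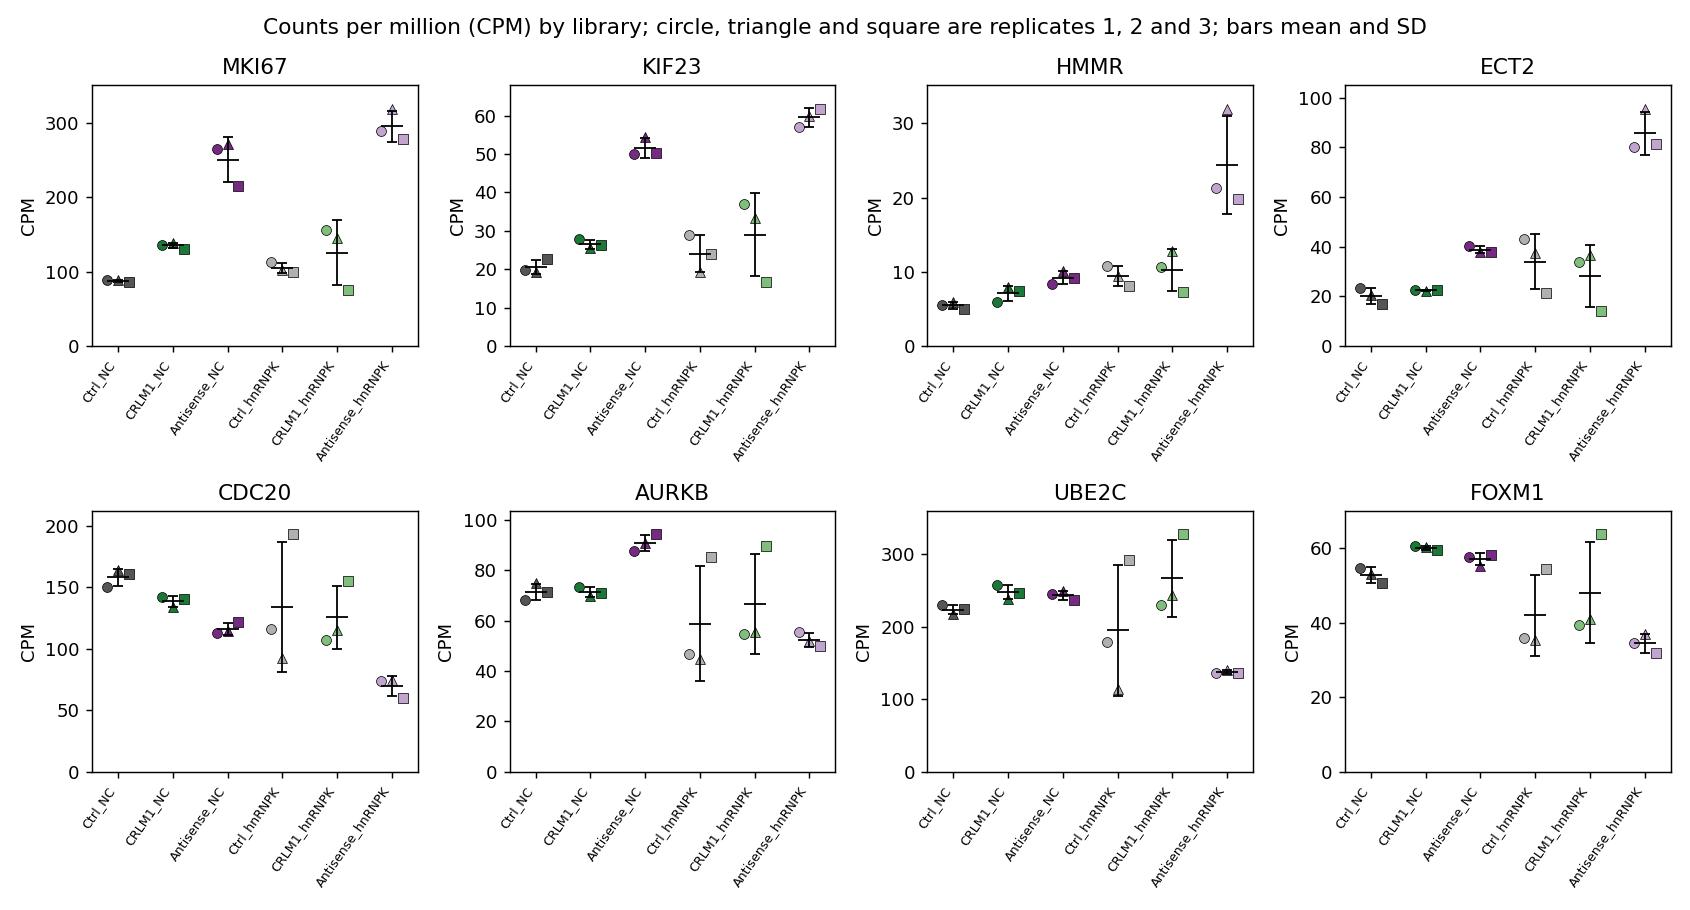
CPM (y axis, from 0) of 8 members in the 6 groups (x axis); circle, triangle and square are replicates 1, 2 and 3, and bars give the mean and SD (n = 3). MKI67 and KIF23 are high in Antisense_NC, HMMR and ECT2 in Antisense_hnRNPK, and CDC20, AURKB, UBE2C and FOXM1 are low in Antisense_hnRNPK. The squares of CRLM1_hnRNPK lie apart from its other 2 libraries. In Ctrl_hnRNPK this holds for ECT2, CDC20, AURKB, UBE2C and FOXM1, whereas the square of KIF23 lies between the other 2 libraries and those of MKI67 and HMMR lie next to the triangle.

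In the Ctrl and CRLM1 backgrounds the third libraries decided the calls. With all libraries, edgeR called 0 of 40 members and 0.0% of all genes in Ctrl_hnRNPK against Ctrl_NC and in CRLM1_hnRNPK against CRLM1_NC; DESeq2 and limma on FPKM also called 0 members. At an unadjusted p under 0.05 there were 15 and 2 of the 40 members, beside 2246 of all 14607 genes in Ctrl and 1332 of all 14394 in CRLM1. Without the third hnRNPK libraries, 25 members rose and 7 fell in Ctrl, where 29.6% and 29.9% of all genes were called. In CRLM1, 28 rose and 6 fell, beside 29.5% and 29.1% of all genes.

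BUB1, a checkpoint kinase, was at 32.0, 30.8 and 30.3 CPM in Ctrl_NC and at 69.7, 63.3 and 35.1 CPM in Ctrl_hnRNPK. In CRLM1 it was at 33.9, 32.8 and 32.6 CPM in NC and at 63.1, 60.2 and 28.4 CPM with the construct. The first 2 hnRNPK libraries of each background were high and the third was near or under NC. Its log2 fold change in Ctrl was 0.84 ± 0.25 (adjusted p = 0.32) with all libraries and 1.12 ± 0.08 (adjusted p = 7.8e-09) without the third. CDK1 (0.99 ± 0.07 in Ctrl and 0.83 ± 0.06 in CRLM1 without the third libraries), TOP2A (1.02 ± 0.08 and 0.76 ± 0.06), DLGAP5 (1.03 ± 0.12 and 0.97 ± 0.10) and NUSAP1 (0.95 ± 0.07 and 1.03 ± 0.06) also rose, as did ECT2 (1.02 ± 0.12 and 0.70 ± 0.09) and HMMR (0.91 ± 0.16 and 0.77 ± 0.15). Other genes share 86.8% of the annotated exon bases of NUSAP1 and 61.9% of those of PRC1, partly antisense to them, so their counts are uncertain.

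Without the third libraries, AURKB (-0.62 ± 0.08), PLK1 (-0.59 ± 0.11), CDC20 (-0.58 ± 0.09), CDC25B (-0.57 ± 0.09), FOXM1 (-0.54 ± 0.08), UBE2C (-0.59 ± 0.20) and BIRC5 (-0.33 ± 0.07) fell in Ctrl. The same genes except UBE2C (-0.016 ± 0.051, adjusted p = 0.804) fell in CRLM1, from -0.53 ± 0.07 for FOXM1 to -0.27 ± 0.06 for CDC20. With all libraries none of these falls passed, and in Ctrl they ran from -0.36 ± 0.19 for FOXM1 to -0.22 ± 0.28 for PLK1. The third Ctrl_hnRNPK library lay above every Ctrl_NC library for the genes named for Ctrl except FOXM1. For CDC20 it held 193 CPM against at most 164 CPM in Ctrl_NC. MKI67 in CRLM1 was at 136, 138 and 131 CPM in NC and at 156, 145 and 75.0 CPM with the construct, so that its log2 fold change was -0.054 ± 0.28 with all libraries and 0.21 ± 0.05 without the third.

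Base composition moved with the construct in each background. The Spearman correlation of log2 fold change with transcript GC was -0.75 over 14811 genes in Ctrl and -0.77 over 14514 genes in CRLM1 without the third libraries, and -0.73 over 14337 genes in Antisense. Over the 40 members it was -0.70, -0.70 and -0.79, as a description with no test, since all points share libraries. In Antisense the 30 members that rose had a median GC of 40.9% (34.3 to 50.0%) and the 6 that fell a median of 56.3% (51.1 to 59.1%). Against the mean of Ctrl_NC, single libraries had correlations with GC from -0.82 to -0.62 in the hnRNPK libraries, except the third of Ctrl (0.15) and of CRLM1 (0.36). The part of GC in the members' changes was not tested, and an effect of the construct cannot be told apart from a difference between libraries that moves with GC.

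With the GC and length trend over all genes removed, fewer members passed. In Antisense, 6 rose and 8 fell, 14 in all, beside 37.7% of all genes called in either direction (2605 higher and 2865 lower). HMMR (0.70 ± 0.19, adjusted p = 0.0125), KIF4A (0.44 ± 0.11), CDC25C (0.43 ± 0.15) and ECT2 (0.43 ± 0.10) stayed higher, and UBE2C (-0.72 ± 0.07, adjusted p = 2.7e-05), AURKB (-0.44 ± 0.07), FOXM1 (-0.32 ± 0.08), CDC20 (-0.30 ± 0.09) and CDC25B (-0.23 ± 0.08) stayed lower. Without the third libraries, 8 rose and 3 fell in Ctrl (22.4% of all genes called in either direction), and 10 rose and 6 fell in CRLM1 (24.9%). BUB1 (0.60 and 0.46) and NUSAP1 (0.44 and 0.56) had the highest values in both. In Ctrl none of the 7 members that had fallen stayed called (AURKB -0.21 ± 0.08, adjusted p = 0.0633), and the 3 that fell were TTK (-0.42 ± 0.14), CCNB1 (-0.33 ± 0.10) and BUB3 (-0.19 ± 0.06). In CRLM1, BIRC5 (-0.25 ± 0.07) and FOXM1 (-0.19 ± 0.07) stayed lower, CDC20, CDC25B and AURKB were above 0 without passing, and the others that fell were CENPE, CENPF, TTK and CCNB1. HNRNPK moved too: under this correction its log2 fold change was -0.19 ± 0.07 in Antisense (0.35 ± 0.07 before), -0.11 ± 0.05 in Ctrl (0.44 ± 0.05 before) and 0.14 ± 0.04 in CRLM1 (0.65 ± 0.05 before), so the removal also lowers the gene that the construct carries.

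**Figure D4:**
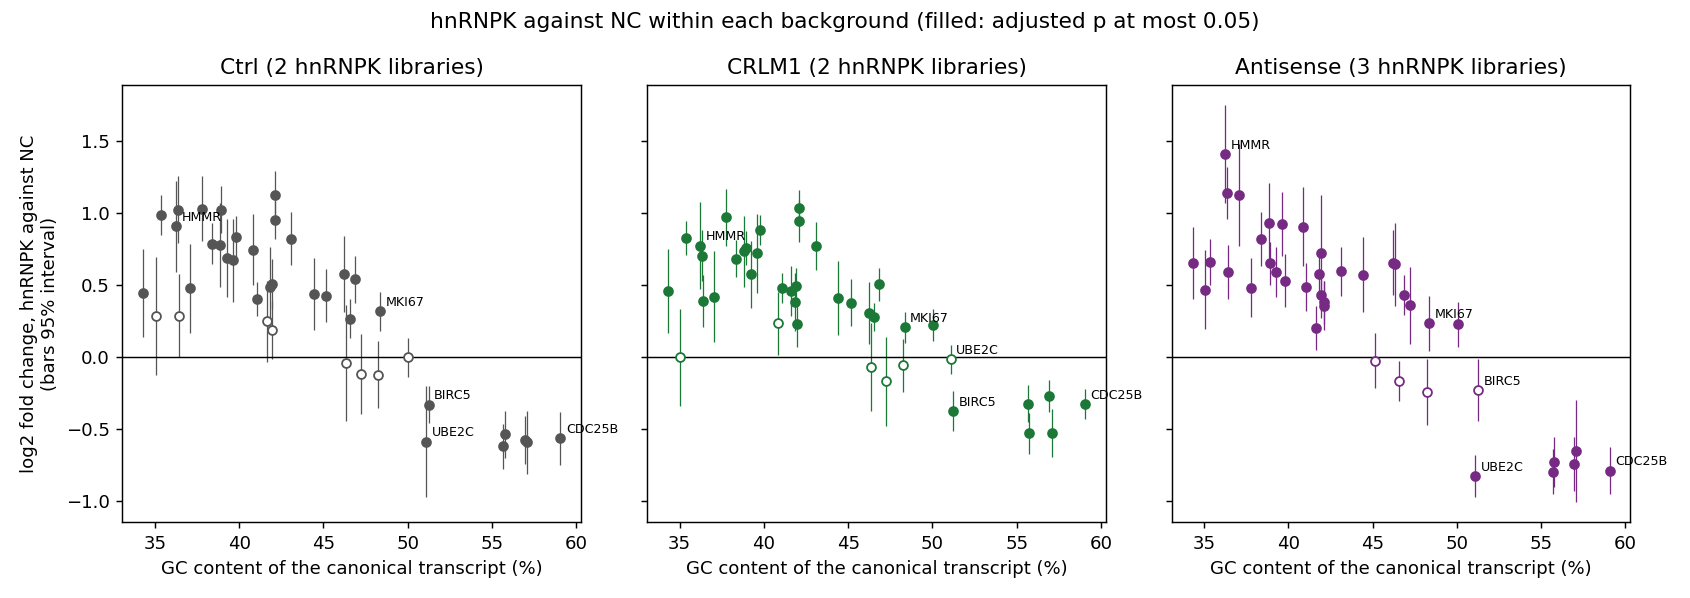
Log2 fold change of hnRNPK against NC (y axis, bars 95% intervals) of each member against the GC content of its canonical transcript (x axis, percent) in the Ctrl, CRLM1 and Antisense backgrounds; filled points pass an adjusted p of 0.05, and Ctrl and CRLM1 are without the third hnRNPK libraries. HMMR (36.2% GC) lies at 1.41 and UBE2C (51.1% GC) at -0.83 in Antisense, and the members over 55% GC lie under 0 in all 3 panels.

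Whether the construct acted differently by background was tested with an interaction term. With all libraries, no member and 0.0% of all genes passed in either test by edgeR, and DESeq2 and limma also called 0 members. At an unadjusted p under 0.05 there were 4 members for Antisense minus Ctrl, beside 2179 of all 15346 genes. For CRLM1 minus Ctrl there were 0, beside 221 of all 15188 genes. Without the third hnRNPK libraries of the groups in the fit, 4 members changed more upward in Antisense than in Ctrl and 7 less, beside 6.58% and 9.47% of all genes. For CRLM1 minus Ctrl 0 members passed, beside 3.36% and 0.0904% of all genes, and the member values ran from -0.48 to 0.60. In that test 7 members had an unadjusted p under 0.05, beside 2395 of all 15485 genes.

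CCNB1 had a difference of 0.76 ± 0.14 (adjusted p = 0.000799): its log2 fold change was 0.90 ± 0.09 in Antisense and 0.19 ± 0.10 in Ctrl. CDC25C (0.83 ± 0.24, adjusted p = 0.0219) and ASPM (0.81 ± 0.23, adjusted p = 0.0165) also differed. CENPA had a difference of 0.58 ± 0.19 (adjusted p = 0.0364). CDC25C was at 7.22, 5.96 and 8.25 CPM in Ctrl_NC, at 8.42 and 5.21 CPM in the first 2 Ctrl_hnRNPK libraries, at 9.78, 9.29 and 9.21 CPM in Antisense_NC and at 15.7 and 16.7 CPM in the first 2 Antisense_hnRNPK libraries, so that the groups overlapped in Ctrl but not in Antisense.

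BUB1 had a difference of -0.71 ± 0.11 (adjusted p = 0.000194), from 1.12 ± 0.08 in Ctrl to 0.37 ± 0.08 in Antisense. NUSAP1 (-0.63 ± 0.10), DLGAP5 (-0.49 ± 0.16), TPX2 (-0.44 ± 0.10), ANLN (-0.40 ± 0.12), TOP2A (-0.38 ± 0.12) and CCNB2 (-0.38 ± 0.13) also rose less or turned. TPX2 was the member with opposite signs that passed in each background, at 0.27 ± 0.07 in Ctrl and -0.22 ± 0.07 in Antisense. Its Antisense change did not pass with all Antisense_hnRNPK libraries, as given above, so that call rests on leaving out the third. Leaving out only the third Ctrl_hnRNPK library left 5 of the 11 members (BUB1, NUSAP1, DLGAP5, TPX2 and CCNB2). The 4 upward differences were then 0.67 for CDC25C, 0.63 for ASPM, 0.51 for CCNB1 and 0.46 for CENPA, with adjusted p from 0.119 to 0.26, so their calls also rest on leaving out the third Antisense_hnRNPK library, which resembled its group (0.988 to 0.994).

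**Figure D5:**
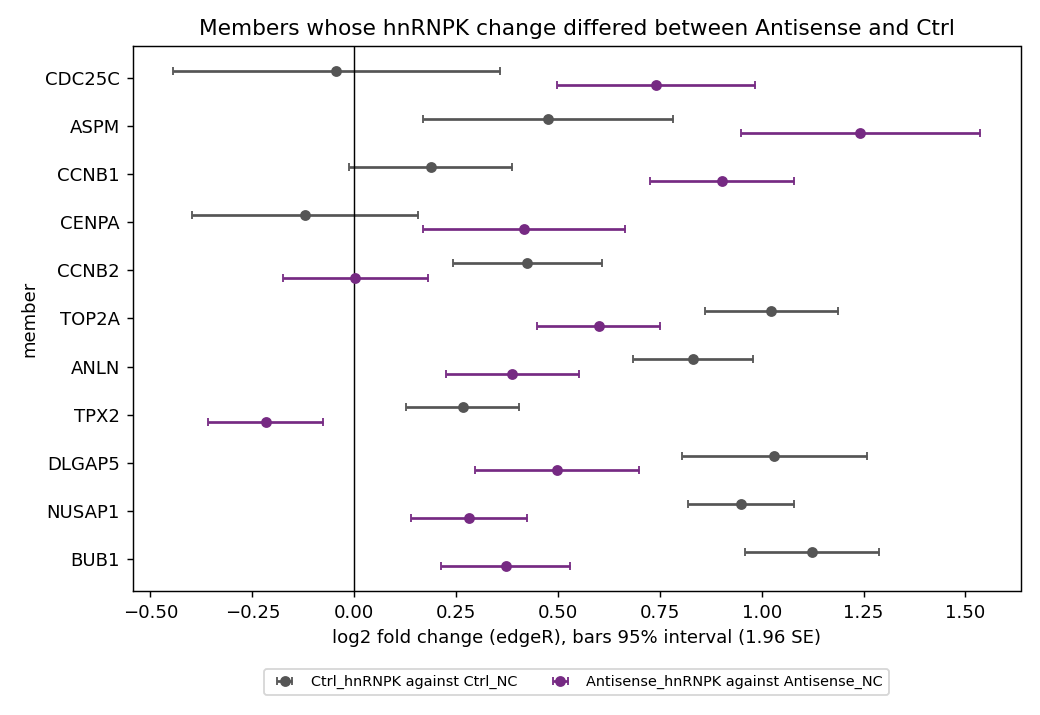
Log2 fold change of hnRNPK against NC (x axis, bars 95% intervals) in the Ctrl (grey) and Antisense (purple) backgrounds, without the third hnRNPK libraries, for the 11 members (y axis) whose change differed between them. CDC25C, ASPM, CCNB1 and CENPA lie further right in Antisense, and the other 7 lie further right in Ctrl.

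Other genes of the same machinery were counted from 5 lists, all without removal of the GC and length trend. In Antisense_NC against Ctrl_NC, where 34.4% of all genes were called higher and 32.2% lower, 21 of 25 other spindle, kinetochore and passenger genes rose and 2 fell, led by the kinesin KIF15 (log2 fold change 1.81 ± 0.15, adjusted p = 4.48e-13) and with the kinase NEK2 lowest (-0.67 ± 0.10). Of 18 condensin and cohesin genes 15 rose and 0 fell, with the cohesin release factor WAPL (listed as WAPAL) highest at 1.63 ± 0.09. Of 19 genes of the anaphase-promoting complex and its targets and inhibitors 8 rose and 6 fell, from CDC27 (1.35 ± 0.08) to ANAPC11 (-0.78 ± 0.05). Of 16 genes of G2/M entry control 9 rose and 5 fell, from the Greatwall kinase MASTL (0.91 ± 0.08) to CKS2 (-0.91 ± 0.05). Of 16 MuvB, DREAM and E2F regulators 7 rose and 5 fell, from the pocket protein RBL1 (1.32 ± 0.17) to E2F1 (-1.21 ± 0.06).

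In CRLM1_NC against Ctrl_NC (16.9% of all genes higher and 17.4% lower) the same lists had 12 higher and 2 lower, 9 and 0, 4 and 4, 5 and 7, and 5 and 4. The condensin subunit SMC4 (0.80 ± 0.08) and the CDK1-inhibiting kinase WEE1 (0.55 ± 0.06) led theirs, and E2F1 was the lowest regulator (-0.37 ± 0.05). In Antisense_hnRNPK against Antisense_NC (33.4% and 30.5%) they had 19 and 6, 11 and 3, 10 and 5, 6 and 5, and 9 and 4, the G2/M entry list (6 and 5 of 16) being near the share over all genes. The cohesin subunit STAG1 (1.44 ± 0.13) and the kinetochore protein MIS12 (1.26 ± 0.14) led, and FZR1, the second activator of the anaphase-promoting complex, was lowest at -1.04 ± 0.08, with E2F1 at -0.90 ± 0.11. CDC20 and FZR1 thus both fell in that comparison. E2F1 fell in each of these 3 contrasts, which share Ctrl_NC or Antisense_NC libraries.

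In CRLM1_NC against Antisense_NC (26.9% and 29.5% of all genes) the 5 lists had 1 higher and 17 lower, 1 and 13, 5 and 5, 3 and 8, and 4 and 4, with MIS12 at -1.95 ± 0.22, WAPL at -1.05 ± 0.08 and E2F1 at 0.84 ± 0.07. Without the third hnRNPK libraries, Ctrl (29.6% and 29.9%) had 16 and 5, 12 and 3, 9 and 6, 6 and 7, and 7 and 4. CRLM1 (29.5% and 29.1%) then had 16 and 5, 13 and 3, 8 and 5, 7 and 6, and 7 and 4. FZR1 fell in both (-0.92 ± 0.10 in Ctrl and -0.68 ± 0.07 in CRLM1), as did E2F1 (-0.87 ± 0.08 and -0.70 ± 0.09), whereas ANAPC4, a subunit of the anaphase-promoting complex, rose (1.31 ± 0.15 and 0.76 ± 0.16). The change differed between Antisense and Ctrl (6.58% and 9.47% of all genes) for 2 higher and 1 lower, 2 and 3, 2 and 0, 3 and 0, and 2 and 3 genes of the 5 lists, with E2F5 (1.22 ± 0.33, adjusted p = 0.0146) and the condensin II subunit NCAPH2 (0.74 ± 0.13, adjusted p = 0.000386) furthest up. Between CRLM1 and Ctrl (3.36% and 0.0904%) it differed for 5 genes of the lists, all upward, among them GADD45A (0.49 ± 0.08).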

How the data were processed

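RNA was sequenced in 18 libraries of HCT116, 3 per group. The authors trimmed the reads, aligned them with TopHat2 to GRCh38 with Gencode gene models and deposited read counts per gene from uniquely mapped reads, and FPKM values that they scaled by exon length and mapped fragments. The submitters' processing notes also name bcl2fastq and edgeR. Library totals ran from 19732681 to 27039520 counts, and counting error alone limits low genes such as CENPE. Counts were tested with edgeR 4.0.16 (R 4.3.3) by its quasi-likelihood test, two-sided, with TMM factors, filterByExpr and Benjamini-Hochberg adjustment over all genes tested. Each comparison was fitted on its own groups, and interactions on 4 groups. Alternatives were RLE size factors, no filter, DESeq2 1.42.0, limma 3.58.1 on log2(FPKM + 0.1) and log2(FPKM + 1), a replicate block, a single fit, removal of a loess trend (span 0.3) on GC and length of Gencode 44 canonical transcripts, and leaving out libraries; the single fit without the third hnRNPK libraries was chosen after seeing the data. The scripts were tested on simulated data. One further marker list is not reported here. Members and lists were chosen with earlier results of these data known. All members may be named; of other lists, the highest and lowest gene past the threshold with at least 1 CPM. All 40 members passed the filter in each fit. Replicates of a group differed by more than counting noise, with a mean chi-square per gene of at least 2.99. It reached 5.11 in the NC groups and ran from 14.1 to 36.7 in Antisense_hnRNPK. With the third library it reached 146 in Ctrl_hnRNPK and 173 in CRLM1_hnRNPK, against 11.1 and 6.31 between the first 2 libraries. Intervals and SEs use 1.96 SE where 95% is given.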

Additional observations from a re-analysis of the deposited data

Results flagged for a closer look

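The change under the hnRNPK construct differed between the Antisense and Ctrl backgrounds for 11 members by the interaction test of edgeR, without the third hnRNPK libraries, beside 6.58% of all genes called upward and 9.47% downward. As log2 differences, Antisense minus Ctrl, these were 0.83 for CDC25C, 0.81 for ASPM, 0.76 for CCNB1, 0.58 for CENPA, -0.38 for CCNB2, -0.38 for TOP2A, -0.40 for ANLN, -0.44 for TPX2, -0.49 for DLGAP5, -0.63 for NUSAP1 and -0.71 for BUB1. With all libraries 0 members passed. With the GC and length trend also removed 11 members passed, 10 of them among those named here, beside 16.6% of all genes in either direction. Leaving out only the third Ctrl_hnRNPK library, whose profile resembled NC, kept 5 calls, all of them downward. The calls for CDC25C, ASPM, CCNB1 and CENPA need the third Antisense_hnRNPK library left out as well; it held the lowest value of its group for each, such as 39.3 CPM of CCNB1 against 62.9 and 75.4.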

How the results depend on the processing

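The same replicate number did not pair libraries (correlations of deviations from -0.0927 to 0.0456). The replicate block gave 12 higher and 5 lower members in CRLM1_NC against Ctrl_NC, 4 and 26 in CRLM1_NC against Antisense_NC, 26 and 5 in Antisense_NC against Ctrl_NC, and 29 and 6 in Antisense_hnRNPK against Antisense_NC. A single fit of all 18 libraries gave 1 and 0, 0 and 6, 16 and 1, and 16 and 6 in that order, and 10 and 4, 4 and 25, 26 and 4, and 29 and 7 without the third hnRNPK libraries, so the loss came with those libraries in the shared spread of the fit. That fit gave 28 and 7 in Ctrl_hnRNPK against Ctrl_NC and 28 and 6 in CRLM1_hnRNPK against CRLM1_NC. On FPKM, where the median of all genes shifted by up to 0.25, 3 members were lower in CRLM1_NC and 3 in Antisense_NC against Ctrl_NC, at either pseudocount. Without a filter on low counts 4 members were higher in Ctrl_hnRNPK. RLE factors and DESeq2 kept each count within 1.5 times of the reported one. Leaving out 1 library gave 0 to 25 higher and 0 to 7 lower members in Ctrl_hnRNPK, 0 to 28 and 0 to 6 in CRLM1_hnRNPK, and 0 to 5 for Antisense minus Ctrl; in each the top of the range came without the third hnRNPK library of Ctrl or CRLM1. In Antisense_hnRNPK it gave 25 to 29 and 6 to 9. Calls that some left-out library ended, with the direction kept, were CCNA2, KIF11, KIF4A, TOP2A and FOXM1 in CRLM1_NC against Ctrl_NC, CCNA2, BUB1, CENPE, TOP2A and HMMR in CRLM1_NC against Antisense_NC, CCNB2, CDC25C and AURKA in Antisense_NC against Ctrl_NC, and KIF23, KIF2C, CENPA, CENPE and MKI67 in Antisense_hnRNPK.

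Removing the GC and length trend gave 7 higher members in CRLM1_NC against Antisense_NC (7 with the replicate block), 9 lower in Antisense_NC against Ctrl_NC (9 with the block) and 6 higher in Antisense_hnRNPK (8 with the block, 11 without the third libraries). For Antisense minus Ctrl it gave 4 members (3 with the block) and 11 without the third libraries, which alone gave 11. Without the third libraries it gave 8 and 3 members in Ctrl_hnRNPK and 10 and 6 in CRLM1_hnRNPK, against 25 and 7 and 28 and 6 without that removal.

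Signs turned as follows, as log2 fold changes. In CRLM1_NC against Antisense_NC, GC and length removal gave 0.026 for CCNA2, 0.0062 for BUB1, 0.074 for BUB3, 0.020 for CENPE and 0.13 for TOP2A, and with the block 0.026, 0.0061, 0.074, 0.010 and 0.13. In Antisense_NC against Ctrl_NC it gave -0.015 for BUB1 and -0.098 for TOP2A, and with the block -0.016 and -0.10. MAD2L1 was 0.028 and 0.026 on log2(FPKM + 0.1) and log2(FPKM + 1). In Antisense_hnRNPK, removal, removal with the block and removal without the third libraries gave -0.095, -0.096 and -0.10 for CCNA2, -0.089, -0.092 and -0.085 for CDK1, -0.16, -0.16 and -0.11 for BUB1, -0.088, -0.096 and -0.035 for BUB3, -0.12, -0.12 and -0.19 for TTK, -0.051, -0.051 and -0.082 for KIF11, -0.089, -0.079 and -0.10 for KIF20B, -0.34, -0.34 and -0.37 for KIF23, -0.27, -0.28 and -0.19 for CENPE, -0.096, -0.10 and -0.20 for ANLN, -0.20, -0.20 and -0.15 for DLGAP5, -0.14, -0.14 and -0.22 for NUSAP1, and, without the third libraries, -0.016 for TOP2A. Removal without the third libraries gave -0.19 for BUB3 in Ctrl_hnRNPK and -0.25 for CCNB1 and -0.26 for TTK in CRLM1_hnRNPK. MKI67 in CRLM1_hnRNPK was 0.21 without the third libraries, 0.22 in the single fit without the third libraries, and from -0.26 to 0.21 when 1 library was left out. Why GC removal turned these signs was not tested. CENPE, HMMR and ASPM, under 10 CPM in Ctrl_NC, were among the members with the widest errors in the comparisons of NC groups. Under the construct, members with high counts also had wide errors. In Ctrl_hnRNPK with all libraries the SE was 0.29 for UBE2C, at 224 CPM in Ctrl_NC, and 0.20 for HMMR. The 3 libraries a group limit all tests.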
